A study of Drosophila melanogaster with 3 samples.

Results

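The genes described here are 10 regulators of the cell division cycle of Drosophila melanogaster, namely CycA, CycB, CycD, CycE, stg, E2f1, dap, Cdk1, Cdk4 and fzy. They were chosen by name, out of 13945 protein-coding genes on the 6 chromosome arms. For each gene, every peak with its summit in the gene body or within 5 kb of either side was collected. The peaks come from chromatin immunoprecipitation followed by sequencing (ChIP-seq) of Cycle, the circadian bHLH-PAS factor that pairs with Clock and binds the E-box CACGTG.

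The material was whole white prepupae, with males and females pooled, of 1 transgenic line. That line stably expresses Cycle with GFP at its C terminus, and the immunoprecipitation used an antibody to GFP. There were 3 biological replicates and no second genotype, stage or treatment, so no groups could be compared. Age in hours is given as unknown in the labels. Peak lists hold no expression values, so the stage and tissue labels could not be checked against marker genes. In a whole animal, strong binding in few cells and weak binding in many cells cannot be told apart.

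A cell divides by passing through gap 1 (G1), DNA synthesis (S), gap 2 (G2) and mitosis (M). Cyclins bind and switch on cyclin-dependent kinases (Cdks), each at its own step. CycD with Cdk4 acts in G1, the transcription factor E2f1 switches on genes of S phase, and CycE starts S phase until the inhibitor Dacapo (dap) stops it. String (stg), a Cdc25 phosphatase, removes the inhibitory phosphates from Cdk1 and so triggers mitosis together with CycA and CycB. Fizzy (fzy), the fly Cdc20, then activates the anaphase-promoting complex, which marks the mitotic cyclins for destruction. Around the onset of metamorphosis the histoblasts divide, while many larval tissues are polyploid or about to die.

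The sequences of some of the peaks are given first, on the plus strand of dm6. Each spans up to 100 bp either side of a summit and stops where an annotated exon begins. Capitals mark a match to any motif searched on either strand, which were the Clock and Cycle E-box CACGTG, the DREF site TATCGATA, the 4 E2F sequences TTTCCCGC and TTTGGCGC and TTTCGCGC and TTTGCCGC, then GTGCAC as a further palindrome, GAGAGA of GAGA factor, GGTCACAC of M1BP, and CAGCTG as an E-box of other bHLH factors. A match outside the printed stretch is not shown. The set holds the strongest peak in the windows of stg, CycE, Cdk1, fzy and CycA. For E2f1, whose strongest peak is at a neighbour, it holds the strongest intronic peak and the window lowest in GC, which were chosen after their values were seen.
stg, upstream peak, chr3R:29256221-29256421: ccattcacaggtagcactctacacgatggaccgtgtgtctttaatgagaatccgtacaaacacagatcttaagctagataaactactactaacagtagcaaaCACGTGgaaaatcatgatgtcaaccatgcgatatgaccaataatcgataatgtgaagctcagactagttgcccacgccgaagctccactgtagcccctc
CycE, intronic peak, chr2L:15747001-15747141: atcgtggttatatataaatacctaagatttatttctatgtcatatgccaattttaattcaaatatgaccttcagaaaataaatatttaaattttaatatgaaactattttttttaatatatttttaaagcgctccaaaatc
E2f1, strongest intronic peak, chr3R:21641652-21641852: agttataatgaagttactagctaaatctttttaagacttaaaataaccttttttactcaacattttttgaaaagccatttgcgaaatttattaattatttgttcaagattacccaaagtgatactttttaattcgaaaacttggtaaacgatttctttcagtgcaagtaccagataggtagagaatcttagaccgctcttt
E2f1, intronic peak lowest in GC, chr3R:21651130-21651330: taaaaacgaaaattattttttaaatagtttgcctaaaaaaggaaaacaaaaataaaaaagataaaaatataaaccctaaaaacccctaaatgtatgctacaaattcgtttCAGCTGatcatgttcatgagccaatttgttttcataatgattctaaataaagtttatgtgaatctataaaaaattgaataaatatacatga
Cdk1, peak shared with mRpS7, chr2L:10386428-10386628: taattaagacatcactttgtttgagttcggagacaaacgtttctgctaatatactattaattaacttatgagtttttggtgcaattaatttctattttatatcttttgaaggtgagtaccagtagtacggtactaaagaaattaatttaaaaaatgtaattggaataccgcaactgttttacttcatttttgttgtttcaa
fzy, peak shared with cni, chr2L:16310727-16310892: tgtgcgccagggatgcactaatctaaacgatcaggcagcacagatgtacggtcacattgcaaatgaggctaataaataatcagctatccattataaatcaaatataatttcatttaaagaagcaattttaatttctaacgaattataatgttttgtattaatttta
CycA window, peak at RpL10Ab, chr3L:11822720-11822850: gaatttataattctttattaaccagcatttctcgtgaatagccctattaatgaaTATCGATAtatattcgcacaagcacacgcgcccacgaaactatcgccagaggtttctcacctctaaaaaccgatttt

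Of these windows, the one upstream of stg held an exact E-box, beginning 2 bp from the summit. It was the single case among the 35 summits described here, against 1.63% of all 7227 thresholded summits. Among the 118 thresholded summits with CACGTG within 100 bp, 4 had it this close, and the median distance was 63.5 bp. By signal, the stg peak ranked 5 among these 118. TATCGATA was likewise found once, 39 bp from the summit at RpL10Ab in the window of CycA, against 3.32% of all thresholded summits. E2F sequences lay near 2 summits, one 112 bp beyond the 3' end of stg and one in an intron of InR in the window of E2f1, against 2.81% of all. GAGAGA and CAGCTG lay near 3 summits each, against 9.66% and 7.97% of all, and GTGCAC and GGTCACAC near 1 each, against 8.36% and 1.96%. Matches from different motifs did not overlap. A match describes the letters only.

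Peaks lay in or near most of these genes, some of them at starts of neighbours. The authors thresholded 1 list by the irreproducible discovery rate (IDR), which scores how alike peaks rank between lists. Not every peak kept was found in all 3 replicates (90.1% were). In this thresholded list, 9 of the 10 windows held at least 1 summit, and CycD was the exception. Of all protein-coding genes, 57.3% had such a summit. A gene was counted as having a peak at its start when a summit lay 1 kb or less from one of its protein-coding transcript starts. By this count 8 of the 10 genes had a thresholded peak at the start, all but CycA and CycD, against 28.6% of protein-coding genes. No test was made of these counts, because the genes were picked with earlier results of these data known. The 8 became 5 without replicate 1 (CycE, stg, Cdk1, Cdk4 and fzy) and 4 without replicate 2 (CycE, stg, Cdk1 and Cdk4), where only peaks among the 7227 strongest of both remaining replicates were kept. The share of all genes was then 24.2% and 19.9%. In the longer pooled list, all 10 windows held a summit (83.1% of all genes) and 9 genes had one at the start (55.4%). Replicate 1 had summits in 8 of the windows (83.1%) and at 7 starts (46.1%), replicate 2 in all 10 (81.1%) and at all 10 (58.9%), and replicate 3 in all 10 (81.1%) and at 9 (58.1%).

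In all, 35 thresholded summits fell in the 10 windows, a density of 18.2 per 100 kb. The windows of all protein-coding genes together held 5.94 per 100 kb. E2f1 alone contributed 15 of the 35, and the other 9 windows had 14.2 per 100 kb. Only 22 of the 35 were left without replicate 2 or without replicate 3, when the windows held 11.5 per 100 kb and those of all genes 4.34 and 4.41. In the longer lists the ratio between these densities was smaller, though the difference was larger in all of them but replicate 1. The pooled list had 44.8 against 23.7 per 100 kb. Replicate 1 had 32.8 against 23.4, replicate 2 had 48.0 against 24.7 and replicate 3 had 46.4 against 24.5. Of the 35, 18 lay in the body of the gene, 9 upstream and 8 downstream. The nearest protein-coding start was the gene's own for 21 summits and a neighbour's for 14, so a summit in a window is not by itself a peak of that gene. E2f1 alone held 12 of the 18 and 12 of the 21. Matching shares over all genes are not given for these placements. The authors' signal of the 35 peaks ran from 114 to 1099.9 with a median of 203, close to the median of 212 over the whole list.

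Signal in a replicate is given as deposited, and also as relative signal, which is the value divided by the median of that replicate over the thresholded peaks (64.0, 67.7 and 86.6 in replicates 1, 2 and 3). Of the 35 summits, 32 had an overlapping peak in replicate 1, all 35 in replicate 2 and 33 in replicate 3. Over all thresholded peaks the shares were 91.9%, 99% and 98.8%. A peak in every replicate was found for 31 of the 35, against 90.1% of the list, and a peak among the 7227 strongest of every replicate for 19 of the 35, against 68.2%. The coefficient of variation of relative signal had a median of 26.5% over the 31 summits with a peak in all 3 replicates, against 22.9% over the 6514 such peaks of the list.

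**Figure D1:**
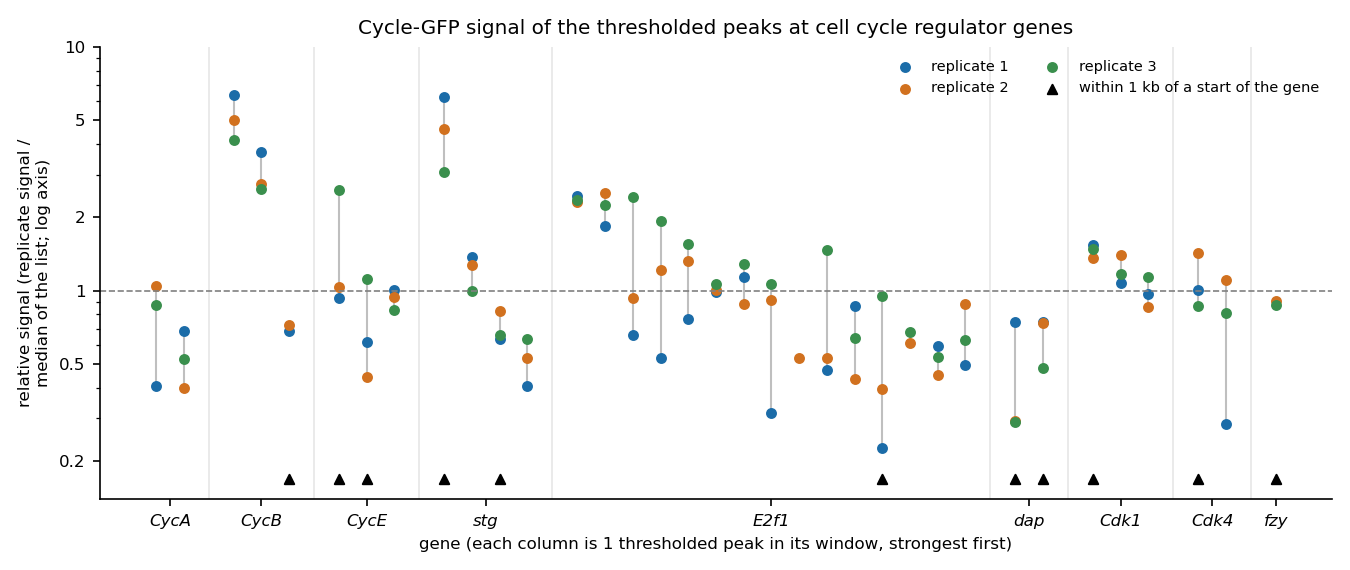
Relative signal (log axis) of the 35 thresholded peaks in the windows of 9 genes, with 1 column per peak, 1 point per replicate and a grey line from the lowest to the highest replicate. Triangles mark summits within 1 kb of a start of the gene, and the dashed line marks the median of the list. The strongest peaks of CycB and stg stand above 3 in every replicate, while both dap peaks stay below 1.

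Entry into the cycle. CycD, the G1 cyclin (X, 15906822 to 15909676), had no thresholded summit. The pooled list held 1 summit in its window, 217 bp upstream of the start, with a signal of 79.9 and rank 9732 of 29484, under the lowest signal of 110.3 in the thresholded list. Replicate 2 had a peak 226 bp from the start (signal 28.3, rank 9859), and replicate 3 had its nearest one 93 bp away (signal 23.3, rank 14277). Replicate 1 had no peak in the window. CycD is the only one of the 10 genes on X, and the list of replicate 1 held 3569 peaks on X (11.9%), against 6621 (22.1%) in replicate 2 and 6528 (21.8%) in replicate 3. The part of that difference in the empty window was not tested.

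Cdk4, the kinase partner of CycD (2R, 16579470 to 16585448), had a thresholded summit 601 bp upstream of its first start with a signal of 245. Replicate signals were 64.5, 96.9 and 75.4 in replicates 1, 2 and 3. The relative signal was 1.10 ± 0.292 (SD, n = 3), from 0.871 in replicate 3 to 1.43 in replicate 2. A second summit, in an intron near the 3' end, had a signal of 171 and was uneven, with relative signals of 0.286, 1.11 and 0.810. Its nearest protein-coding start, 2090 bp away, was that of the ribosomal protein gene RpLP2. The antisense RNA gene CR44375 starts closer, 670 bp away.

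E2f1 (3R, 21620304 to 21660871), the activating E2F factor, had the most peaks. Its window of 50.6 kb held 15 thresholded summits, a number reached by 16 of the 13945 genes (0.115%), most of them with longer windows. Per 10 kb of window this was 2.97 summits, little above the 2.86 of stg and 2.60 of Cdk1, while fzy had 0.824. With only peaks supported by both remaining replicates, the count was 10 without replicate 1 (reached by 35 genes), 10 without replicate 2 (34 genes) and 8 without replicate 3 (68 genes, 0.488%). The pooled list had 37 summits there, and the lists of replicates 1, 2 and 3 had 25, 42 and 39. Of the 15, 12 lay in introns of E2f1, and 11 of these were over 1 kb from any of its 5 starts. Between the starts at 21638494 and 21660432, a stretch of 21938 bp, there were 9 summits. The remaining 3 of the 15 lay outside the gene, at or within neighbours. Some of the 15 were not separate in every replicate. The summit at 21649501 overlapped a peak in replicate 2 alone, and that peak was also matched to the summit at 21649734. The summits at 21656918 and 21657126 shared a peak of replicate 2.

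The strongest summit in the window did not mark E2f1. It lay 864 bp beyond the 3' end and 119 bp from a start of InR, the insulin receptor gene, with a signal of 515. This peak had the lowest coefficient of variation (2.67%) of the 31 summits found in every replicate, with relative signals of 2.44, 2.32 and 2.35 in replicates 1, 2 and 3. A weaker summit (signal 114.9) lay in an intron of InR, and one of 172 lay 366 bp from the start of Archease, in that gene's intron.

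Inside E2f1 the strongest summit was intronic, at 21641752, 3258 bp from the nearest E2f1 start, with a signal of 481. Replicate signals were 118, 171 and 195, and the relative signal was 2.21 ± 0.348 (SD, n = 3). Replicates were less even at the next ones. The summit at 21651230 (signal 311) had relative signals of 0.662, 0.935 and 2.44. The one at 21627960 (signal 284) had 0.531, 1.22 and 1.94. In both, replicate 3 was the highest and replicate 1 the lowest. The single summit within 1 kb of an E2f1 start, 249 bp upstream of the one at 21633073, was weak. Its signal was 118, with relative signals of 0.226, 0.397 and 0.950, and in replicate 1 its peak ranked 19401. The antisense RNA gene CR46055 starts 617 bp from this summit, and peaks carry no strand.

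**Figure D2:**
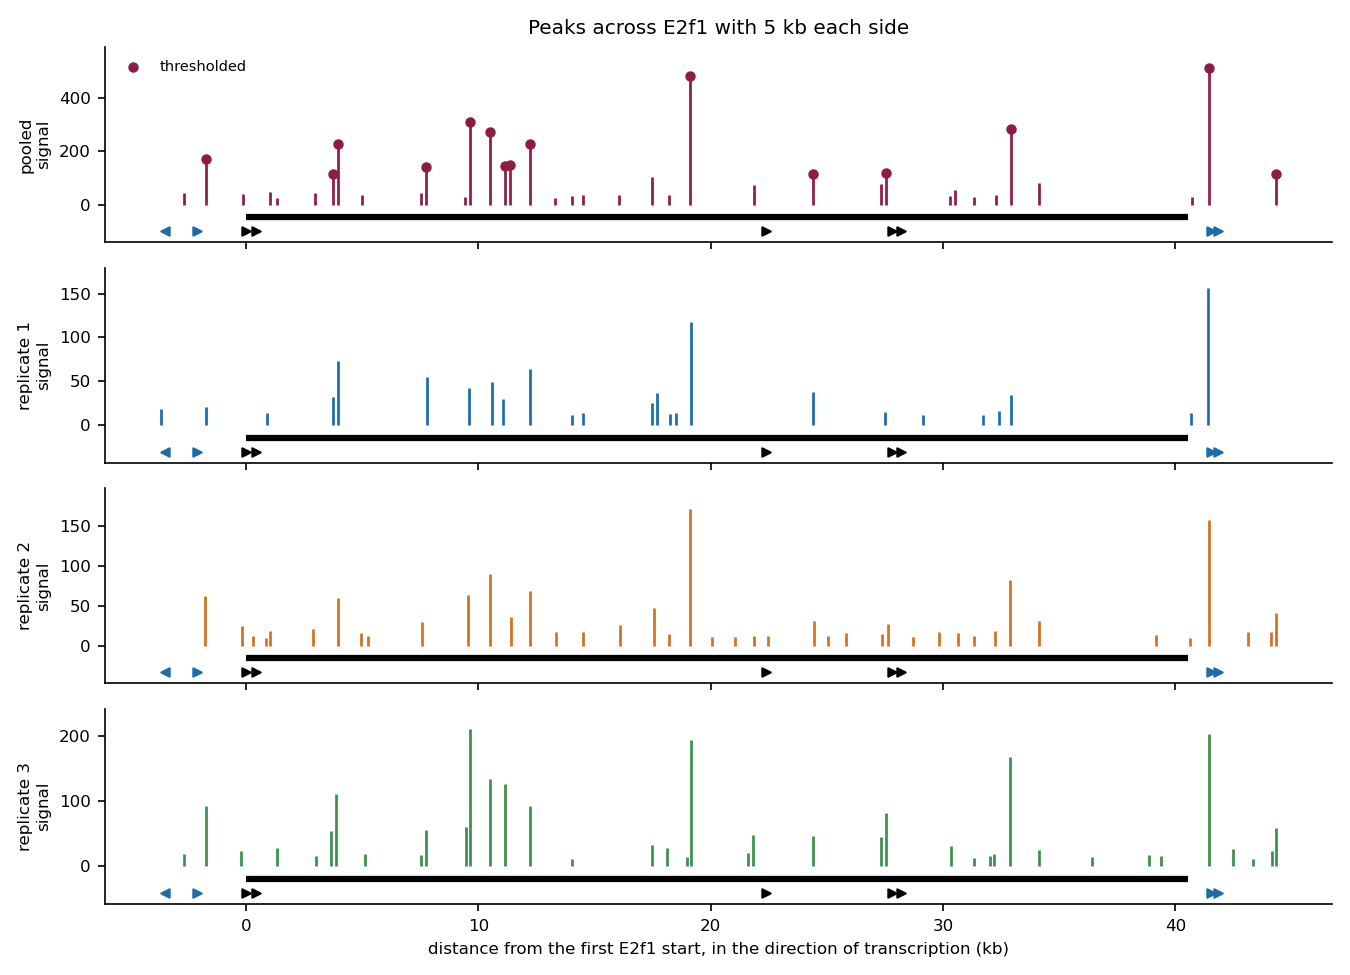
Signal of every peak across E2f1 with 5 kb each side, by distance from its first start in the direction of transcription (kb), in the pooled list and in each replicate. Dots mark the 15 thresholded summits, the black bar is the gene body, and arrowheads are starts of E2f1 (black) and of other protein-coding genes (blue). The tall peak beyond the 3' end is the one at InR, and 9 thresholded summits fill the stretch between the distal and internal starts.

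CycE (2L, 15727581 to 15748150), the S phase cyclin, had 3 thresholded summits, all in its introns. The strongest, with a signal of 352, lay 431 bp upstream of the internal start at 15746610. A second one (signal 216) lay 654 bp upstream of the same start. The lncRNA gene CR44974 starts 784 bp from the strongest summit, and the antisense RNA gene CR44866 starts 737 bp from the second. Replicate signals of the strongest were 59.6, 70.2 and 223 in replicates 1, 2 and 3, so its relative signal of 1.52 ± 0.924 (SD, n = 3) rested on replicate 3, without which it was 0.984. The second summit was also highest in replicate 3, with relative signals of 0.618, 0.443 and 1.12. The third, 2821 bp downstream of that start (signal 203), was even, at 1.01, 0.943 and 0.835. Here replicate 3 was the lowest.

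The gene dap (2R, 9712321 to 9716256), which encodes the p21 type inhibitor of CycE and Cdk2, had a pair of summits at its start. One lay 186 bp upstream (signal 114) and the other 46 bp downstream, in the 5' UTR exon (signal 121). They ranked 6986 and 6573 of 7227, among the weakest of the list. A single peak of replicate 1, 9 bp from the start, overlapped both, with a signal of 47.5. The upstream summit had signals of 49.8 and 41.7 in replicates 2 and 3, and the downstream one 19.9 and 25.1.

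Entry into mitosis. The gene stg (3R, 29251826 to 29255800) had the strongest peak at a start among the 10 genes. Its summit lay 521 bp upstream of stg and 164 bp from the start of CG45544, which runs the other way. The signal was 986, rank 265 of 7227. Replicate signals were 398, 313 and 265, and the relative signals were 6.21, 4.62 and 3.06, a mean of 4.63 ± 1.58 (SD, n = 3). It was 4.51, 3.63 and 3.06 times as high as the next peak of the stg window in replicates 1, 2 and 3.

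The window of stg held 3 further thresholded summits. One, 1181 bp upstream of stg and in an intron of CG45544, had a signal of 260 and relative signals of 1.38, 1.27 and 0.999. An intronic summit 786 bp downstream of a stg start had a signal of 128, and one 112 bp beyond the 3' end had 120. The latter had relative signals of 0.407, 0.531 and 0.635. All 4 summits had a peak in every replicate.

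CycB (2R, 22803521 to 22806948), the mitotic cyclin, had the highest signal in any of the 10 windows, but away from its promoter. That summit lay 574 bp beyond the 3' end of CycB and 767 bp beyond the 3' end of blw, a subunit gene of the mitochondrial ATP synthase, in the gap of 1340 bp where these genes converge. The signal was 1099.9, rank 201. Replicate signals were 408, 339 and 361, and the relative signal was 5.19 ± 1.11 (SD, n = 3). The nearest protein-coding start, an internal one of CycB, was 3356 bp away. Of the 201 peaks at least this strong, 38 lay over 3 kb from any protein-coding start. Of 285 thresholded summits in gaps between converging genes, it ranked 11 by signal, and their median was 198.

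At the CycB start itself the signal was lower. The summit 102 bp upstream had a signal of 158 and replicate signals of 43.9 and 49.0 in replicates 1 and 2, with no overlapping peak in replicate 3. The start of stl, on the other side, also lies within 1 kb of it. A further summit, 140 bp from the start of blw, had a signal of 652 and a relative signal of 3.03 ± 0.605 (SD, n = 3).

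Cdk1 (2L, 10384739 to 10386262), the mitotic kinase, had a summit between its own start, 266 bp away, and that of mRpS7, a mitochondrial ribosomal protein gene, 134 bp away. Its signal was 324, and the replicate signals were 98.3, 92.5 and 129. The relative signals were 1.54, 1.37 and 1.49, with a coefficient of variation of 6.00%. Another 2 summits in the window were nearest to starts of CG5096 (163 bp, signal 270) and da (98 bp, signal 213), the gene of the common partner of class II bHLH factors. All 3 were among the strongest 7227 peaks of each replicate.

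CycA (3L, 11826719 to 11833578), which acts in S phase and mitosis, had no thresholded summit in its body or within 1 kb of its start. The 2 thresholded summits in its window lay 4457 and 3899 bp beyond its 3' end, with signals of 126 and 164. They were 13 bp from starts of CG11597 and CG5946, and 31 bp from the start of RpL10Ab, a ribosomal protein gene. At the CycA start, replicate 2 had a peak 24 bp away (signal 38.5, rank 7043) and replicate 3 one 118 bp away (signal 33.7, rank 10034). Replicate 1 and the pooled list had none within 1 kb, where 46.1% and 55.4% of protein-coding genes had one.

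Exit from mitosis. The gene fzy (2L, 16310956 to 16313097) had 1 thresholded summit, 164 bp upstream of its start and 66 bp from that of cni, which is transcribed the other way and encodes a cargo receptor of the secretory pathway. Its signal was 185. Replicate signals were 61.7 in replicate 2 and 75.6 in replicate 3, and the relative signals of 0.912 and 0.873 lay close together. Replicate 1 had no peak anywhere in the fzy window.

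**Figure D3:**
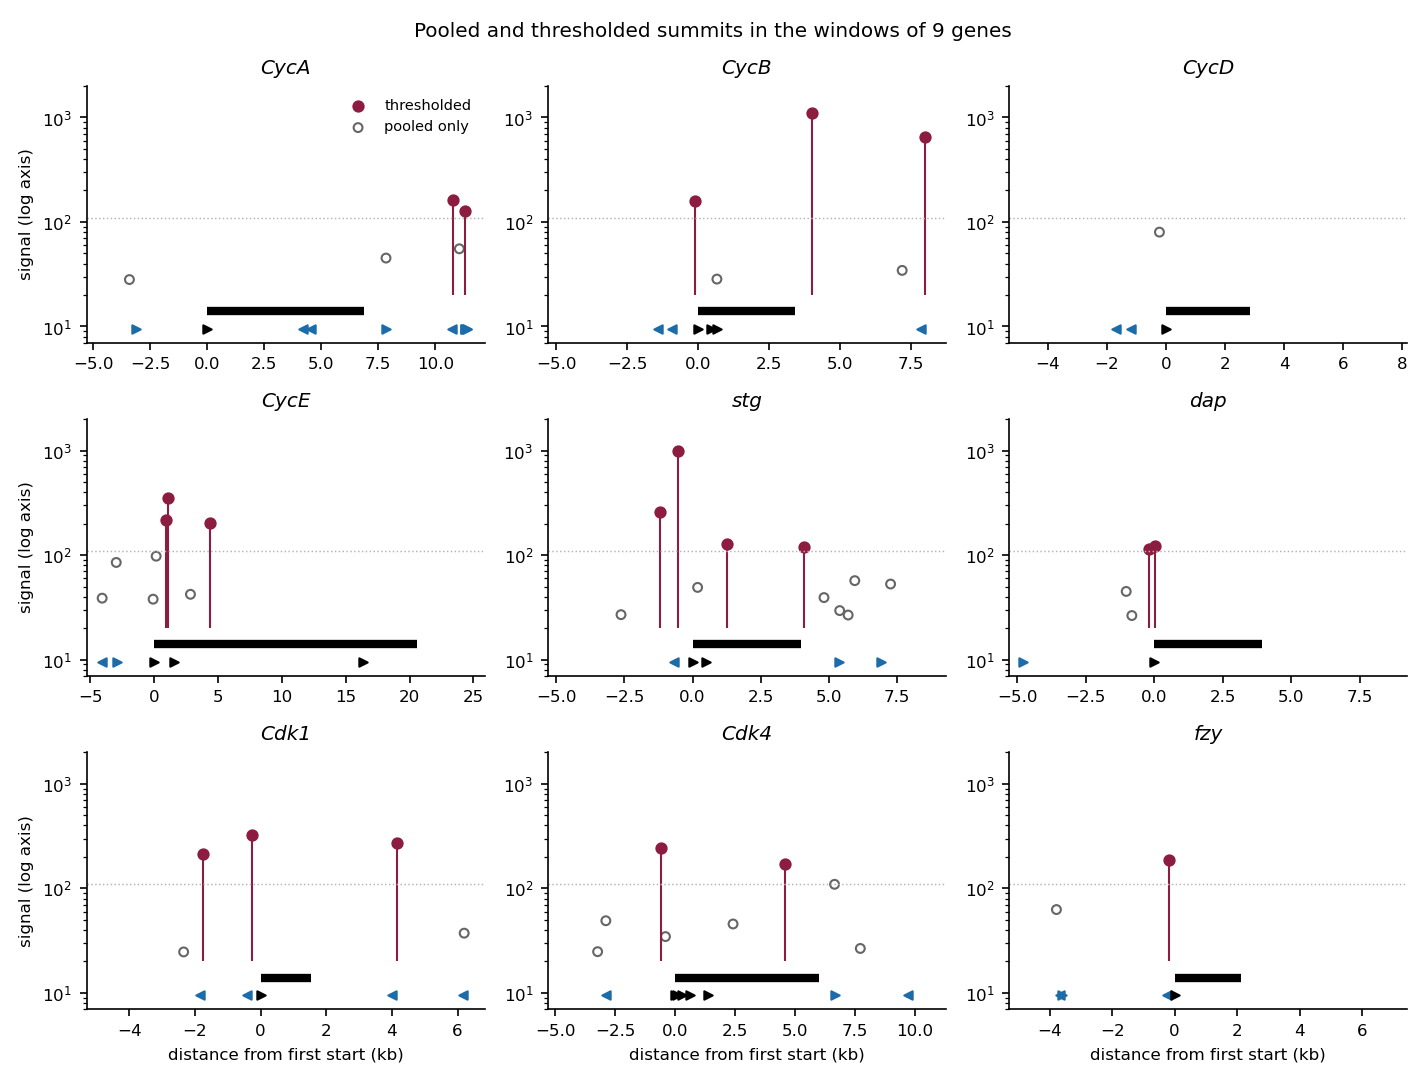
Summits in the windows of the 9 genes other than E2f1, by distance from the first start in the direction of transcription (kb) and authors' pooled signal (log axis). Filled points are thresholded and open points are in the pooled list alone; the dotted line marks a signal of 110, the black bar the gene body, and arrowheads the starts of the gene (black) and of other protein-coding genes (blue). The stg and Cdk1 peaks stand between divergent starts, the tallest CycB peak lies past the 3' end, and CycD has a single open point.

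For CycB, stg, Cdk1 and fzy, 4 of the 8 genes with a peak at the start, the same summit also lay within 1 kb of a start of a neighbour, and a peak between divergent genes cannot be given to one of them. Of all 3984 protein-coding genes with a peak at the start, 63.2% had such a shared summit. CycE, E2f1, dap and Cdk4 had no other protein-coding start within 1 kb of these summits. Among genes with a peak at the start, the median of the highest signal was 215 for the 8 and 249 for all 3984 protein-coding genes.

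The balance between replicates varied with base composition. GC content within 100 bp of the 35 summits ran from 22.4% to 46.8%, with a median of 34.3%, the same as over the list. Spearman's rho between GC content and the log2 ratio of relative signal in replicate 3 over replicate 1 was -0.49 over the 31 summits with both values, and -0.32 over the 6558 such peaks of the list. Against replicate 2 the rho of replicate 3 was -0.48 over 33 summits and -0.39 over 7096 peaks, while between replicates 2 and 1 it was -0.22 over 32 and -0.05 over 6570. These points share libraries and neighbouring loci and are given as a description. In the fifth of the list lowest in GC, up to 29.9%, the median log2 ratio of replicate 3 over 1 was 0.46, and in the fifth highest in GC, from 39.8%, it was -0.28. Of the 13 summits in the E2f1 window with both values, 10 were higher in replicate 3, against 8 of 18 in the other windows and 47.1% of the list. The 13 include the peaks at the starts of InR (log2 ratio -0.05) and Archease (1.75). The stg peak, at 44.3% GC, and the CycB peak past the 3' end, at 36.3%, had log2 ratios of -1.02 and -0.61. The part of GC content in the values of single genes was not tested.

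**Figure D4:**
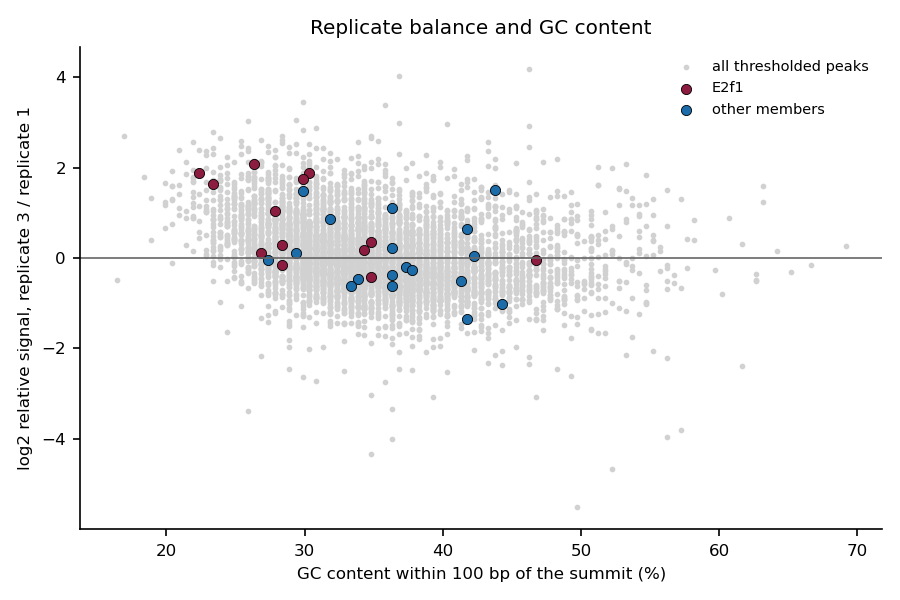
Log2 ratio of relative signal in replicate 3 over replicate 1 against GC content within 100 bp of the summit, for the 6558 thresholded peaks with both values (grey), the summits in the E2f1 window (red) and those in the other windows (blue). The summits low in GC lie mostly above 0 and include several of the E2f1 window, while the stg peak lies below.

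A wider list of 89 cell cycle genes, drawn up from textbook knowledge and without the 10, was set beside them. Of these, 46 had a thresholded peak at a start (51.7%, against 28.6% of all protein-coding genes), and 73 had one in the gene body with 5 kb each side (82.0%, against 57.3%). The first count was 29 without replicate 2 and 28 without replicate 3, when the shares of all genes were 19.9% and 20.01%. The windows of the 89 genes held 12.1 thresholded summits per 100 kb. This was near the 14.2 of the 10 genes without E2f1, and all protein-coding genes had 5.94. The checkpoint genes had 5 of 6 (grp, lok, mei-41, tefu and p53, but not mus304), and the E2F, Rb and dREAM genes 8 of 10. The latter included Dp, the partner of E2f1, and the repressors Rbf, Rbf2 and E2f2, but not Myb or Caf1-55. Many of these summits lay nearer to a protein-coding start of another gene. Among checkpoint genes this held for grp, lok, mei-41 and tefu. In the E2F, Rb and dREAM group it held for lin-52, Rbf2, mip130, E2f2 and mip120. Cyclins and Cdks other than the 10 had 6 of 16 (37.5%), without Cdk2 and CycB3, and the anaphase-promoting complex 4 of 11 (36.4%). Both shares were near the 28.6% of all protein-coding genes. Mitosis genes had 9 of 15, replication genes 8 of 18, SCF and Cullin genes 3 of 6, and the Cdc25, Wee1 and Cdk regulator group 3 of 7. These groups are small, and differences between them were not tested.

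The strongest of these start peaks were at SkpA, a subunit of the SCF ubiquitin ligase (signal 1035), Dp (992), lin-52 of the dREAM complex (678) and dpa, the Mcm4 helicase gene (638). They were followed by grp, the Chk1 kinase gene (511), RnrS, a ribonucleotide reductase gene (455), Cdc16 of the anaphase-promoting complex (445) and aurA, the Aurora A kinase gene (407). Relative signals of Dp in replicates 1, 2 and 3 were 7.18, 4.03 and 3.01, and those of SkpA 4.20, 5.37 and 4.48. At SkpA, lin-52, grp and aurA the nearest protein-coding start was that of another gene (Hmt4-20, CG15771, CG31807 and CG3281). The summit lay 983 bp from SkpA but 193 bp from Hmt4-20, and 982 bp from grp but 400 bp from CG31807. It lay 579 bp from lin-52 but 37 bp from CG15771, while aurA and CG3281 were 160 and 159 bp away.

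**Figure D5:**
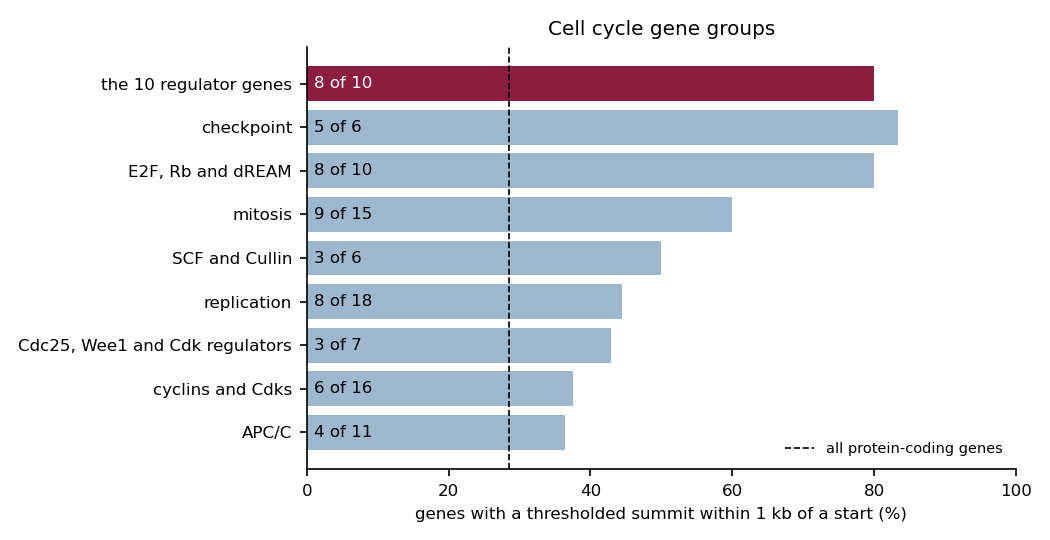
Share of genes with a thresholded peak at a start, its summit 1 kb or less away (%), for the 10 regulator genes (red) and the groups of the wider list (blue), with the count in each bar. The dashed line is the share of all protein-coding genes, 28.6%. The groups run from 36.4% (4 of 11) and 37.5% (6 of 16), near that line, to 83.3% (5 of 6).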

How the data were processed

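White prepupae of the Cycle-GFP line were profiled by ChIP-seq in 3 replicates. The authors deposited peak lists in narrowPeak layout, per the texts deposited with the samples. Each replicate has a list of peaks and background regions (30000, 30000 and 29999), and a pooled list (29484) and an IDR-thresholded list (7227) were made from them. Aligner and peak caller: not given in the sources used here. Per peak, signal is a value the authors deposited, set against a control alignment shared by all lists, which was not analysed here. Depth is unknown, as no read counts were given, and yields no precision. One label names cyc under antibody and another an antibody to GFP.

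Summits are the deposited peak start plus offset, on dm6, counted from 1. Genes and their 19607 protein-coding starts were those of Ensembl release 115 (build 6.54), and sequence from RefSeq Release 6, whose arms contain all peaks. Replicate peaks were matched to thresholded peaks by an overlap of at least 1 bp, nearest summit first, so neighbouring summits can share one. Motifs were counted in windows of 201 bp. Of the 89 wider genes, 1 was matched by synonym (lmg, as lmgA). All 10 genes are named, with the genes whose starts were nearest to their thresholded summits and the 8 wider genes with the highest signal near a start. The genes, lists and motifs were chosen with earlier results of these data known. The motifs other than the E-box CACGTG, TATCGATA and E2F, the GC comparison and the gaps between converging genes were added after the data were seen. No test was made. Summit placement was tested on simulated data. Python 3.11.15, numpy 2.4.6, pandas 2.3.3 and matplotlib 3.10.9 were used.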

Additional observations from a re-analysis of the deposited data

How the results depend on the processing

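With no flank around the gene body, 5 of the 10 genes held a thresholded summit (14.9% of all genes), with 18 summits in all. Among the 3613 strongest thresholded peaks, 17 summits were left, 4 of the 10 genes had one within 1 kb of a start (16.8% of all genes), and 23 of the 89 other cell cycle genes did. In the pooled list without the IDR threshold, there were 86 summits in the windows, and 72 of the 89 other genes had one near a start (55.4% of all genes). With 1 replicate left out, the number of the 10 genes with a summit in the window was 6 to 8 (44.7% to 50.9% of all genes), the summits 22 to 24, the genes with one near a start 4 to 6, and the other genes 28 to 37 (19.9% to 24.2% of all genes). Keeping only peaks supported by all replicates, an alternative chosen after seeing the data, gave 19 summits, and 4 genes and 26 other genes with one near a start (18.9% of all genes). CACGTG lay within 250 bp of 3 summits (5.85% of all), and an E2F sequence within 50 bp of 0 (1.19%) and within 250 bp of 5 (10.05%). The cause of these shifts was not tested. Flanks of 1 and 10 kb, starts within 500 bp or 5 kb and overlap of the whole peak kept the counts within 1.5 times. The shares of all genes moved more. With flanks of 1 and 10 kb, 8 and 9 of the 10 genes held a summit, against 35.9% and 71.5% of all genes. With starts within 500 bp, 6 of the 10 genes had one, against 24.8% of all. With starts within 5 kb, 8 of the 10 and 68 of the 89 other genes had one, against 50.8% of all. The dm3 lists were not used here. No paired analysis was possible because there is only 1 group. The unknown depth limits what the absence of a peak at CycD, or in 1 replicate at fzy, shows.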
